A study of Mus musculus with 14 samples.

Results

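The Hox genes encode homeodomain transcription factors and lie in 4 clusters, Hoxa on chromosome 6, Hoxb on chromosome 11, Hoxc on chromosome 15 and Hoxd on chromosome 2 of the mouse. The genes described were 38 named members of these clusters, chosen by name and cluster membership, out of 21938 protein-coding genes of the assembled chromosomes. They comprised 10 genes of Hoxa (Hoxa2 to Hoxa13), 10 of Hoxb (Hoxb1 to Hoxb9 and Hoxb13), 9 of Hoxc (Hoxc4 to Hoxc13) and 9 of Hoxd (Hoxd1 to Hoxd13). For each gene, the question was how much of its start region and of its body lay in sites of H3K27me3, the trimethylation of lysine 27 of histone H3.

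The sites came from ChIP-seq on iMEF cells, which are immortalised mouse embryo fibroblasts. In the study, fibroblasts whose Ash2l alleles are floxed and which carry Cre-ER received a lentiviral construct for FKBP-HA2-ASH2L, a fusion of the human protein to a degradable tag, and exon 4 of endogenous Ash2l was then deleted by 4-hydroxytamoxifen. Clones were then grown from single cells. The study names 1 of them, NG3, for the histone ChIP-seq, so that the replicates are not separate clones. The controls, labelled WT, carry the same deletion and fusion as the treated cells. The labels give 12 H3K27me3 libraries in 6 groups of 2, namely untreated control cells and cells exposed for 30 min, 2 h, 4 h, 8 h or 16 h to dTAG-13, a compound (PROTAC) that brings the fusion protein to an E3 ubiquitin ligase. The other 2 libraries were input chromatin, 1 from the control and 1 from the 16 h group. ASH2L is a subunit of the complexes that methylate lysine 4 of histone H3, and the experiment addressed whether H3K27me3 changes after its loss. The file used here is 1 list of 153983 sites brought together over all samples, without a value, a group or a depth for any library. Hence the values below describe where a site was listed in this cell system, they have no replicate error, and control and treated cells cannot be told apart in them. RNA was not measured in these libraries, so the fibroblast label could not be checked against marker genes.

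Hox proteins give cells their identity along the body axis and in the limbs. All genes of a cluster are read in the same direction, apart from antisense RNAs, and low paralogue numbers lie at the 3′ end and are used earlier and further towards the head, whereas high numbers lie at the 5′ end and are used later and further towards the tail. Genes with the same number in different clusters are copies of 1 ancestral gene and form 13 paralogue groups. Polycomb repressive complex 2 sets H3K27me3, and Hox clusters are the classical targets of Polycomb proteins, with trithorax proteins such as ASH2L as their counterpart. Cultured fibroblasts are known to keep a Hox pattern of the body region they were taken from.

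The Hoxb and Hoxc genes lay in H3K27me3 sites nearly throughout, while most of Hoxa and the 5′ part of Hoxd had few or none. A site was present within 1 kb of a transcription start site (TSS) for 27 of the 38 genes (71.1%), compared with 31.5% of all protein-coding genes. For this count, the windows of 1 kb either side of every annotated TSS of a gene were merged and are called the TSS window. At least 50% of the TSS window was covered in 21 genes (55.3%; all protein-coding genes 13.5%), and all of it in 20 genes (52.6%; all protein-coding genes 5.44%). The window was partly covered in 7 genes and had no site in 11. In the gene body, from the first to the last base of the gene record, 28 genes had a site (73.7%; all protein-coding genes 46.7%) and 17 were covered throughout (44.7%; all protein-coding genes 2.19%). The start of a principal transcript, as annotated by APPRIS, lay inside a site for 23 genes (60.5%; all protein-coding genes 17.5%).

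The median covered share over the Hox genes was 100% for the TSS window and 98.0% for the body. Over all protein-coding genes both medians were 0, and the means were 14.7% and 11.2%, compared with 58.1% and 59.2% over the Hox genes. Neighbouring Hox genes often share a site, so that the 38 genes are not independent, and no test over genes was made. Over Hoxb, 4 sites held the TSS windows of 10 genes, and over Hoxc 3 sites held those of 9 genes.

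**Figure D1:**
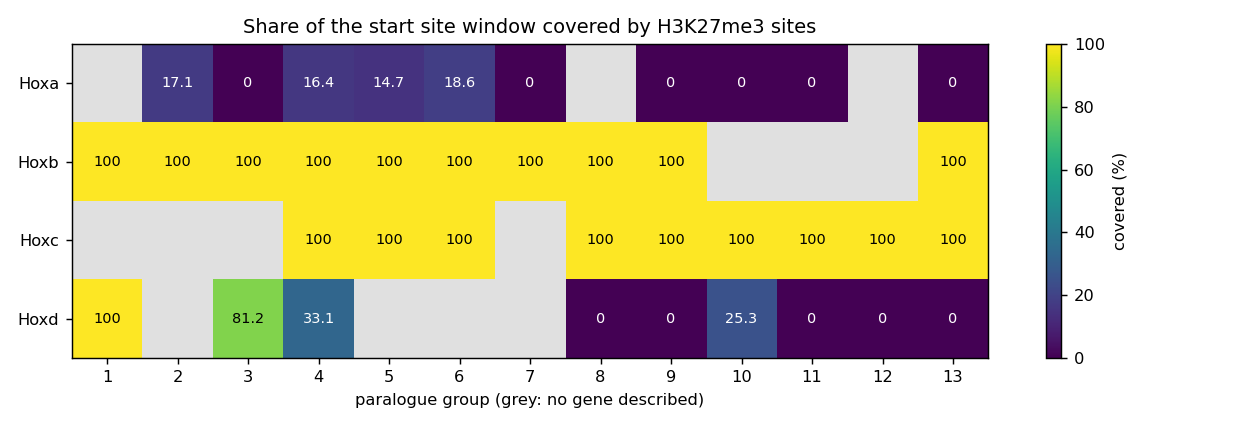
Share of the TSS window (1 kb either side of all start sites of a gene) covered by H3K27me3 sites, in %, for 38 Hox genes by cluster (rows) and paralogue group (columns), with the value written in each cell and grey where no gene is described. All cells of Hoxb and Hoxc are at 100%, no cell of Hoxa is above 18.6%, and Hoxd is at 100% in group 1, at 25.3% in group 10 and at 0 in groups 8, 9 and 11 to 13.

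Promoters of the same paralogue group are shown first, because TSS windows of such a group were covered in some clusters and partly or not covered in others. The sequences are 300 bases each, from 250 before the start to 50 from it on, taken from RefSeq on GRCm38.p6 and printed 5′ to 3′ on the strand of the gene with every CpG in capitals. CpG-rich promoters are the ones at which Polycomb and trithorax complexes are commonly found. Those of Hoxb4, Hoxc4 and Hoxd4, which belong to the hindbrain and neck level group 4, were each covered at 100%.

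Hoxb4 promoter, chr11:96318017-96318316, plus strand: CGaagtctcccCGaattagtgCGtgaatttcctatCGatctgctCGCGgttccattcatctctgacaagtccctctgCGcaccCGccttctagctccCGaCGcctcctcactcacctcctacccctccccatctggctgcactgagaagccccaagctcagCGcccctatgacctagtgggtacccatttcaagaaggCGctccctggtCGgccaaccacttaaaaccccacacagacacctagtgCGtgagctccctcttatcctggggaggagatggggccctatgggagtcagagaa

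Hoxc4 promoter, chr15:103034145-103034444, plus strand: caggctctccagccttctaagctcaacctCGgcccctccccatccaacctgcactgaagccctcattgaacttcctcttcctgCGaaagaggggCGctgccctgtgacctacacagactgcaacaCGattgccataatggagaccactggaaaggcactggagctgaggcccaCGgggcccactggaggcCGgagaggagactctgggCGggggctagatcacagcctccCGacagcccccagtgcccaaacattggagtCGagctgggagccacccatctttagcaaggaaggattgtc

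Hoxd4 promoter, chr2:74721728-74722027, plus strand: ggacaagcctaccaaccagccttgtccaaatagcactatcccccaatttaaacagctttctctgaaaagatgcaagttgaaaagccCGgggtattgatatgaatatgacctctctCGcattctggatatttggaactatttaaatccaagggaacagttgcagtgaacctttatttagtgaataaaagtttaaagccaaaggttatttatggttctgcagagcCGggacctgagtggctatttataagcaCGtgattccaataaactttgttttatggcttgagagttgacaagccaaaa

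Their CpG counts were 14 in Hoxb4, 9 in Hoxc4 and 4 in Hoxd4. The printed promoter of Hoxd4 was thus covered and had few CpG. It belongs to the start at 74721978, with 13 CpG in 500 bases either side and a TSS window at 78.5%. The other principal start of Hoxd4, at 74727074, had 42 CpG and a window at 10.6%. In group 8, the promoter of Hoxb8 was covered at 100% and that of Hoxd8 at 0, with 13 and 6 CpG. In 500 bases either side of the same starts the order was reversed, with 38 CpG in Hoxb8 and 70 in Hoxd8.

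Hoxb8 promoter, chr11:96281655-96281954, plus strand: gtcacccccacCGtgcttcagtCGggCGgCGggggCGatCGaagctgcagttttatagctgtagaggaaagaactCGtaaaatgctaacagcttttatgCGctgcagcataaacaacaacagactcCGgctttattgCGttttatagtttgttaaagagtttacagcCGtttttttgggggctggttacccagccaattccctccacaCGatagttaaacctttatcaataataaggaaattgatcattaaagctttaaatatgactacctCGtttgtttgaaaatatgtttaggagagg

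Hoxd8 promoter, chr2:74704365-74704664, plus strand: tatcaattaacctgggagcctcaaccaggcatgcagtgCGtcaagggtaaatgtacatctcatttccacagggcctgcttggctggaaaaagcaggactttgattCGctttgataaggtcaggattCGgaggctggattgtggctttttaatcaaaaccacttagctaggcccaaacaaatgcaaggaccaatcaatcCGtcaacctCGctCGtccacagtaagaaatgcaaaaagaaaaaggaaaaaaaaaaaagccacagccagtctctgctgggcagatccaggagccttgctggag

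The genes at the 5′ ends of Hoxa and Hoxd, Hoxa13 and Hoxd13, specify digits and the genital tubercle. Both promoters were at 0 and held 45 and 37 CpG, more than any of the covered promoters printed above. Among the promoters not printed, that of Hoxd1 was at 100% with 29 CpG, and that of Hoxa9 at 0 with 4 CpG. A relation between CpG count and coverage was not tested.

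Hoxa13 promoter, chr6:52260831-52261130, minus strand: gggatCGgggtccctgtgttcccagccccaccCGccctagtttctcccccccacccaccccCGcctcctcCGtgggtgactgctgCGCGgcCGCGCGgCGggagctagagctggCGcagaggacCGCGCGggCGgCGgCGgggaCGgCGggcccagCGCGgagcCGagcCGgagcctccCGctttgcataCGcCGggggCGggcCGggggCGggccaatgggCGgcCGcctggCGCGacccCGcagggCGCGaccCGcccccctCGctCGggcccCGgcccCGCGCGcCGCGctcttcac

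Hoxd13 promoter, chr2:74667975-74668274, plus strand: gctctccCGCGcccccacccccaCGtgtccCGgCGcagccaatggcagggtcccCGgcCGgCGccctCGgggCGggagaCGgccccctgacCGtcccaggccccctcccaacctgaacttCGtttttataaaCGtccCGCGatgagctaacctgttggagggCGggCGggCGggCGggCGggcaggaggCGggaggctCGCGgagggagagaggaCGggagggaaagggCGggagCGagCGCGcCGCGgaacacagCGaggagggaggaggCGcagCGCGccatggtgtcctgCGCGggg

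The RefSeq table matched 24 promoters of 22 of the Hox genes, all but those of Hoxb1, Hoxb4, Hoxb8 and Hoxc4 from Hoxa and Hoxd. The median GC content of these promoters was 57.7% and their median CpG count 14.5. In all 32851 promoters of the table, the medians were 52.7% and 7 CpG. The values of the Hox promoters thus describe mostly Hoxa and Hoxd. The letters TGATNNAT, the type of site that PBX and HOX proteins bind together, were searched on both strands, with no other motif searched. They were present in 4 of the 24 promoters (16.7%), those of Hoxa2, Hoxb1, Hoxb8 and one of the promoters of Hoxd11, compared with 8.85% of all promoters. Of these, the Hoxb1 and Hoxb8 promoters were covered at 100%, that of Hoxa2 at 71.0% and that of Hoxd11 at 0.

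By cluster, from the first to the last gene described, sites covered 8.23% of Hoxa (98.5 kb), 45.6% of Hoxd (96.8 kb), 97.5% of Hoxb (173.9 kb) and 99.5% of Hoxc (115.8 kb). The number of sites did not follow these shares. Hoxc was covered by 3 sites with a median width of 26776 bp and Hoxb by 12 with a median of 8527.5 bp, while Hoxd had 18 with a median of 628 bp and Hoxa 10 with a median of 478.5 bp. Sites at least 1 kb wide numbered 3 in Hoxc, 9 in Hoxb, 6 in Hoxd and 1 in Hoxa. The longest stretch without a site within the span was 349 bp in Hoxc, 1043 bp in Hoxb, 23943 bp in Hoxd and 52271 bp in Hoxa. In Hoxd and Hoxa this stretch was cut at the end of the span.

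**Figure D2:**
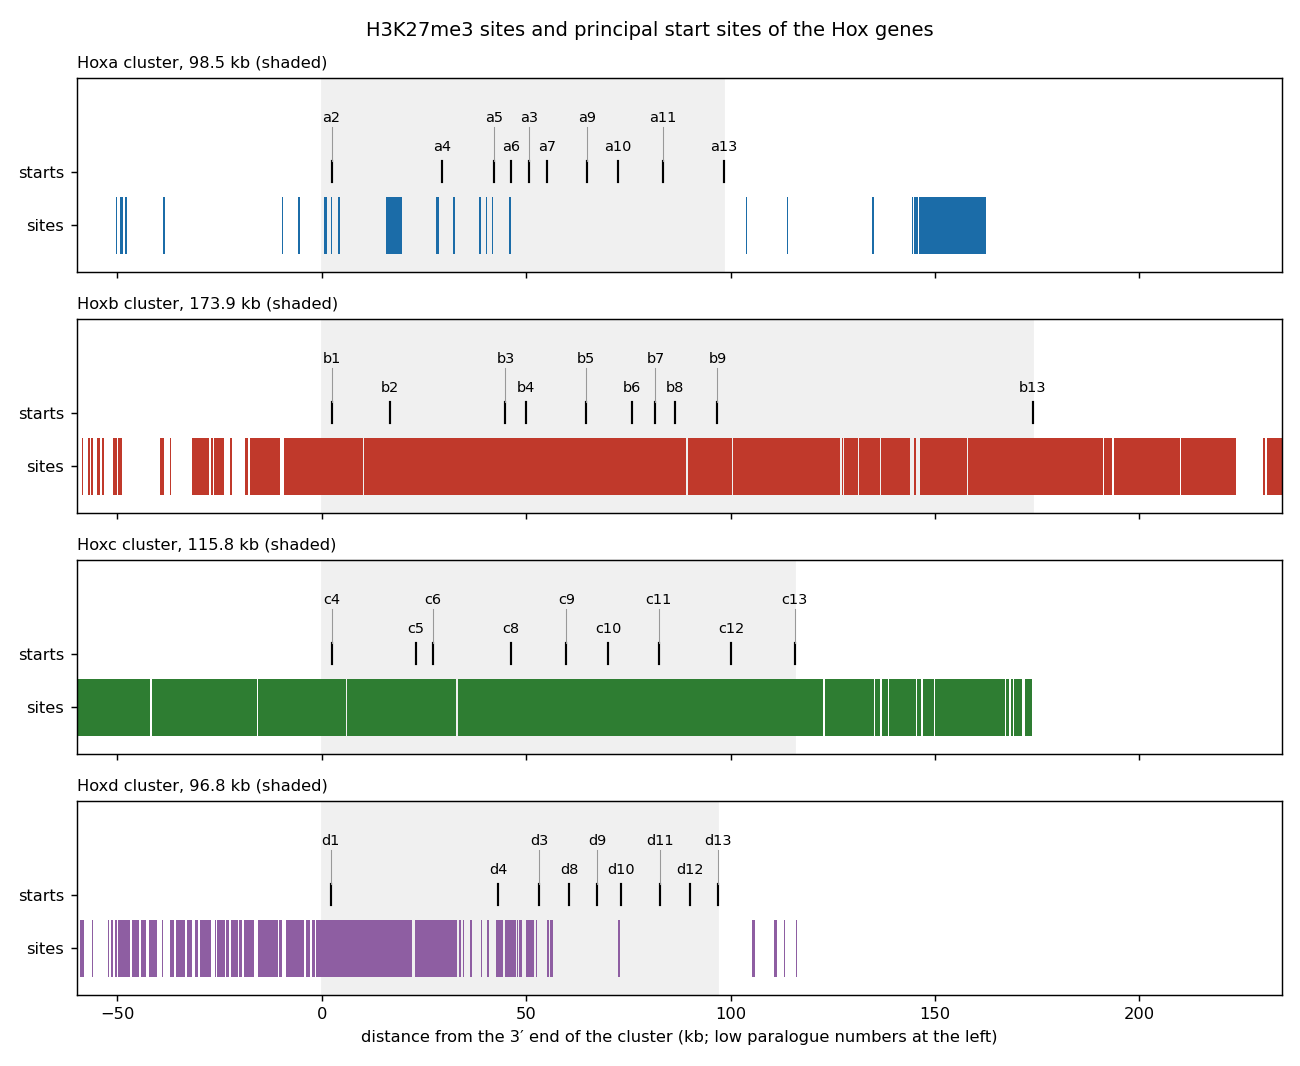
H3K27me3 sites (coloured blocks) and principal start sites of the Hox genes (black ticks, labelled by cluster letter and number) along the 4 clusters, plotted by distance from the 3′ end of each cluster in kb, with the span of the genes shaded. Sites fill the shaded span of Hoxb and Hoxc, fill Hoxd only at its 3′ end, and are narrow and scattered in Hoxa.

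In the Hoxc cluster (chr15:102921103-103036852), all 9 genes had their whole TSS window in sites. One site of 89320 bp, at chr15:102914325-103003644, ran over the TSS windows of 8 genes. It held the principal starts of Hoxc13, known for its role in hair follicles, Hoxc12, Hoxc11, Hoxc10, Hoxc9 and Hoxc8, a thoracic gene. The next site, of 26776 bp at chr15:103003994-103030769, held those of Hoxc5 and Hoxc6, and the last, of 21501 bp at chr15:103031017-103052517, held that of Hoxc4. The bodies of 6 genes were covered at 100%. Those of Hoxc4, Hoxc5 and Hoxc6 were at 98.6%, 99.3% and 97.4%, since each of them runs over a gap of 349 or 247 bp. After joining sites less than 1 kb apart, the whole cluster lay in 1 stretch of 263.6 kb (chr15:102863062-103126691) that was made of 19 sites and covered at 97.7%.

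In the Hoxb cluster (chr11:96194316-96368256), all 10 genes were covered at 100% in both the TSS window and the body. A site of 78687 bp at chr11:96279203-96357889 held 7 genes, from Hoxb2 to Hoxb8, which include the hindbrain genes Hoxb2 and Hoxb3 and Hoxb4, a gene known from blood stem cells. Hoxb9 had a site of its own of 10731 bp. Hoxb1, which marks the fourth rhombomere of the hindbrain, lay in a site of 19263 bp. Hoxb13, known from the tail and the prostate, lies far from the others, with its start 173.9 kb from the 3′ end of the cluster, and was within a site of 32902 bp at chr11:96177220-96210121. Most of the gaps were in the stretch without Hox genes between Hoxb9 and Hoxb13. Here the bins of 5 kb went down to 78.3%, whereas no bin nearer to the 3′ end was below 90.7%. The sequence between genes was covered at 96.2%, and exons and introns at 100%. With sites closer than 1 kb joined, Hoxb1 to Hoxb9 lay in a stretch of 162.6 kb and Hoxb13 in another of 78.7 kb.

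In the Hoxd cluster (chr2:74668310-74765142), coverage was complete at the 3′ end and ended between Hoxd3 and Hoxd8, apart from 1 narrow site in Hoxd10. The widest site, of 23584 bp at chr2:74743093-74766676, held Hoxd1, a gene used in sensory neurons that detect pain, with TSS window and body at 100%. It also held the 2 most downstream of the 6 start sites of Hoxd3, which is needed for the first neck vertebra. Hoxd3 had 81.2% of its TSS window and 69.6% of its body covered, by 14 sites. Its start sites differed. The window of the most upstream start, at position 74711927, was covered at 10.2%, that at 74732913 at 95.4%, and the 4 others at 100%. Hoxd4, which acts in the neck vertebrae as well, had 33.1% of the TSS window and 52.2% of the body covered by 9 sites, the widest of them 2663 bp. Its start at 74721978 lay inside a site with a window at 78.5%, while the windows of the starts at 74711929 and 74727074 were at 10.2% and 10.6%. The first of these overlaps the upstream window of Hoxd3 nearly completely, so that both genes share 1 narrow site of 205 bp there.

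Upstream of them, Hoxd8, Hoxd9, Hoxd11, Hoxd12 and Hoxd13 had no site in the TSS window or the body. The group 9 to 13 genes of Hoxd are known for patterning the limb. The nearest site to the principal start was 3980 bp away for Hoxd8, 4968 bp for Hoxd9, 9930 bp for Hoxd11, 15065 bp for Hoxd12 and 8362 bp for Hoxd13. Between them, Hoxd10 had 1 site of 507 bp at chr2:74692253-74692759. The site began 329 bp inside the gene and lay with 472 bp in exons of Hox genes. It covered 25.3% of the TSS window and 15.9% of the body of Hoxd10. On both sides of it were the longest gaps of the cluster, one of 15835 bp with the starts of Hoxd8 and Hoxd9, and one of 32304 bp that held the starts of Hoxd10 to Hoxd13 and reached past the cluster.

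In the Hoxa cluster (chr6:52162417-52260880), 4 of 10 genes had a site in the TSS window (all protein-coding genes 31.5%), and none had more than 18.6% of it covered by the sites as deposited. These were Hoxa2 (17.1%), which acts in the second pharyngeal arch, Hoxa4 (16.4%), Hoxa5 (14.7%), which is needed for the lung, and Hoxa6 (18.6%). Each had 1 site there, of 342, 644, 295 and 372 bp. Only the site of Hoxa2 held the principal start, while those of Hoxa4, Hoxa5 and Hoxa6 lay 673, 247 and 113 bp from it. The bodies were covered at 35.1% in Hoxa2, 30.9% in Hoxa4, 21.8% in Hoxa5 and 15.3% in Hoxa6. Hoxa3, needed for the thymus and parathyroid, had no site in the windows of its 4 starts but 7 sites in its long record of 44275 bp, which were 14.9% of it. One of these was the widest of the cluster, with 3832 bp at chr6:52178160-52181991, of which 1118 bp were in exons. The other sites of the Hoxa3 record included those named for Hoxa4, Hoxa5 and Hoxa6, since the record runs over these genes.

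Hoxa7, Hoxa9, Hoxa10, Hoxa11 and Hoxa13 had no site in the TSS window or the body. Hoxa9 is known from blood progenitors, Hoxa10 and Hoxa11 from the uterus and the limb. The nearest site to their principal starts was at 8896 bp for Hoxa7, 18761 bp for Hoxa9, 26330 bp for Hoxa10, 20267 bp for Hoxa11 and 5197 bp for Hoxa13. They lay in a gap of 57467 bp at chr6:52208610-52266076, which also held the principal starts of Hoxa3 and Hoxa6. Thus, the last site of the cluster seen from its 3′ end was the one of 372 bp that touched Hoxa6. An empty stretch says only that no site was listed in it, as the read depth behind the list is unknown.

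Position along the cluster was then compared between clusters. Over all 4, the median covered share of the TSS window was 100% for paralogue groups 1 to 4 (11 genes), 100% for groups 5 to 8 (11 genes) and 12.7% for groups 9 to 13 (16 genes). The number of genes with a site was 10 of 11, 9 of 11 and 8 of 16 (all protein-coding genes 31.5%). The last median lies between the values of the 16 genes, of which 7 were at 100%, Hoxd10 at 25.3% and 8 at 0. It became 0 when sites under 1 kb were left out, and 6.34% with windows of 2 kb. In Hoxb and Hoxc no order along the cluster was left to see, as every gene was at 100%. In Hoxa and Hoxd together, the medians were 25.1% for groups 1 to 4 (6 genes, 5 with a site), 7.37% for groups 5 to 8 (4 genes, 2 with a site) and 0 for groups 9 to 13 (9 genes, 1 with a site). These are descriptions of a few genes, some of which share a site.

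Within a paralogue group, the mean share of the TSS window was highest in group 1 (100%, Hoxb1 and Hoxd1) and lowest in group 11 (33.3%, Hoxa11, Hoxc11 and Hoxd11). Groups 2 to 6 were between 58.6 and 72.9%, and groups 7, 9, 12 and 13 at 50.0%. In group 4 Hoxb4 and Hoxc4 were at 100%, Hoxd4 at 33.1% and Hoxa4 at 16.4%, and in group 13 Hoxb13 and Hoxc13 were at 100% and Hoxa13 and Hoxd13 at 0.

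**Figure D3:**
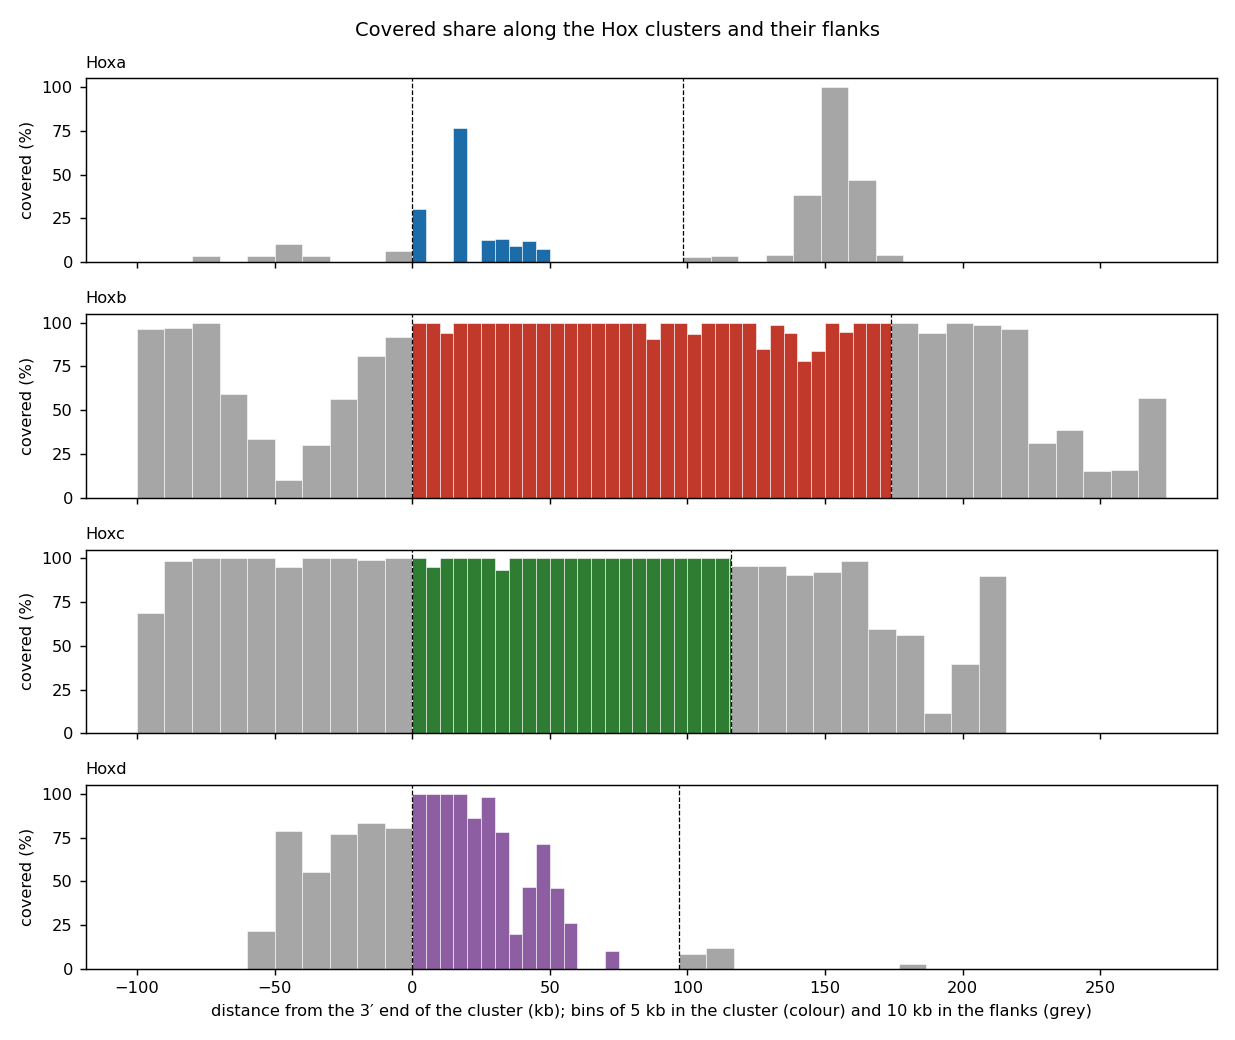
Share of the sequence covered by H3K27me3 sites, in %, in bins of 5 kb within each cluster (coloured, between dashed lines) and of 10 kb in 100 kb on either side (grey), by distance from the 3′ end of the cluster in kb. Hoxd goes from 100% in the first 4 bins to 0 near its 5′ end, Hoxa has 1 bin within the cluster at 76.6% and no other there above 30.3%, and coverage runs on into the flanks of Hoxb and Hoxc.

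In bins of 5 kb from the 3′ end, Hoxd was covered at 100% over the first 20 kb. It was at 86.4, 98.1 and 78.0% up to 35 kb, was at 19.8% between 35 and 40 kb, and at 47.0, 71.2, 46.2 and 26.3% in the bins up to 60 kb. Beyond 60 kb every bin was at 0 except for the one with the Hoxd10 site (10.1%). In Hoxa, the first bin was at 30.3% and the bin at 15 to 20 kb, within the Hoxa3 record, at 76.6%. The bins between 25 and 50 kb were at 7.44 to 13.3%, and all bins from 50 kb to the 5′ end were at 0.

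To see where coverage ended outside the clusters, sites were followed outwards as long as the gap to the next was at most 10 kb. On the 5′ side of Hoxc, sites were met over 186.4 kb, up to position 102734678, and on its 3′ side over 113.4 kb, up to position 103150257, with 81.3 and 96.1% of these stretches covered. For Hoxb, they were met over 228.3 kb on the 3′ side, into Skap1, and 74.1 kb on the 5′ side, through Ttll6, with 68.0 and 77.6% covered. Hoxd had an extent of 59.0 kb with 67.2% covered on the 3′ side, and of 19.4 kb with 10.7% covered on the 5′ side, where Evx2 lies. For Hoxa, the extents were 9.75 kb (6.50% covered) and 15.7 kb (4.31% covered). The distances depend on the gap allowed. With at most 5 kb, the 3′ side of Hoxb was 39.5 kb, the 5′ side of Hoxc 69.6 kb, and both sides of Hoxa and the 5′ side of Hoxd 0.

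Hoxd was the cluster with the most unequal flanks. In the 100 kb beside it, 39.7% was covered on the 3′ side and 2.36% on the 5′ side. The values were 96.1 and 72.9% for Hoxc, 65.6 and 64.8% for Hoxb, and 2.73 and 20.1% for Hoxa. In the 5′ flank of Hoxa, 1 bin of 10 kb was covered at 100%. It lay in a site of 16585 bp with Evx1, a homeobox gene of the even-skipped family, which had both TSS window and body at 100%. The bare 5′ part of Hoxa thus had a wide site beyond it. At the corresponding place beside Hoxd, Evx2 of the same family had 40.5% of its TSS window and 16.9% of its body covered.

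Of the 14 names listed as neighbours of the clusters, 12 were in the annotation and 5 of these had a site in the TSS window, which is near the 31.5% of all protein-coding genes. Beside Evx1 and Evx2, these were Skap1, a signalling adaptor of T cells (79.1%), Ttll6, an enzyme that adds glutamate to tubulin (83.7%), and Smug1, a DNA repair glycosylase (26.9%). Skap2, Hibadh, Cbx5, Hnrnpa1, Calcoco1, Mtx2 and Lnpk had none. Mtx2, a gene for mitochondrial import, had a site at 1634 bp from its nearest start, near the end of the coverage on the 3′ side of Hoxd.

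RNAs that do not code for protein lie between the Hox genes, and several are known to act on them. Of 9 such RNAs listed, 7 had a site in the TSS window and 5 had all of it covered. The same shares were not computed over all noncoding RNAs, and for protein-coding genes they were 31.5% and 5.44%. Hotair, an antisense RNA between Hoxc11 and Hoxc12, was at 100% in window and body. Hotairm1, an antisense RNA at the 3′ end of Hoxa, had 11.98% of its window covered. Hottip, at the 5′ end of Hoxa, had no site in the window and 6.71% of its body covered. The peak list has no strand, so that a site belongs to either strand.

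The microRNAs of the clusters belong mostly to the miR-10 and miR-196 families, which are known to repress Hox messengers. Their main mature forms are printed 5′ to 3′ from RefSeq with the seed, bases 2 to 8, in capitals, since family members that share a seed lay in clusters with different coverage.

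miR-10a-5p: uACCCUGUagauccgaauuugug

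miR-10b-5p: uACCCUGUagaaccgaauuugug

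miR-196a-5p: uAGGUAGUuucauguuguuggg

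miR-196b-5p: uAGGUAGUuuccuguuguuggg

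With the seed ACCCUGU, Mir10a in Hoxb had its window of 1 kb either side of the hairpin's start covered at 100%, within the site of 78687 bp. Mir10b in Hoxd, with the same seed, lay with its whole hairpin in a site of 364 bp, and 18.2% of its window was covered. With the seed AGGUAGU, Mir196a-1 in Hoxb (site of 26143 bp) and Mir196a-2 in Hoxc (site of 89320 bp) give the same mature miR-196a-5p, and both were covered at 100%. Mir196b in Hoxa had no site in its window, and the nearest was 21556 bp away. Mir615 in Hoxc, of another family, was at 100%.

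The sites were not restricted to start sites or CpG-rich sequence within the clusters. In Hoxa, 3.89% of the sequence in TSS windows and 10.6% outside them was covered, and in Hoxd 42.1 and 47.2%. Introns of Hoxd were covered at 57.6%, exons at 28.6% and the sequence between genes at 45.0%, while in Hoxa exons were at 11.5%, introns at 8.26% and the sequence between genes at 3.36%. In tiles of 500 bp, sequence was called CpG-rich when its GC content reached 50% and its CpG count at least 0.6 of that expected from its C and G. CpG-rich tiles were covered at 7.94% and other tiles at 8.34% in Hoxa, and at 40.4 and 46.2% in Hoxd. In Hoxb and Hoxc the values were 100 and 97.2%, and 100 and 99.4%.

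The GC content was nearly the same in the 4 clusters, from 48.9% in Hoxb to 50.0% in Hoxa. CpG was denser in the clusters with less coverage, at 29.9 per kb in Hoxa and 28.1 in Hoxd compared with 20.9 in Hoxb and 21.5 in Hoxc. By the same thresholds in 500 bp either side of the principal start, 25 of the 38 genes had a CpG-rich start, namely 9 of 10 in Hoxa, 7 of 9 in Hoxd, 5 of 10 in Hoxb and 4 of 9 in Hoxc. The same share was not computed over all protein-coding genes, so whether these counts are high is not known. Hoxa13 had 126 CpG around its start and Hoxd13 118, both with a TSS window at 0, whereas Hoxb3 had starts with 15 and 22 CpG and a window at 100%. With 4 clusters, this is a description of each and not a relation that could be tested.

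**Figure D4:**
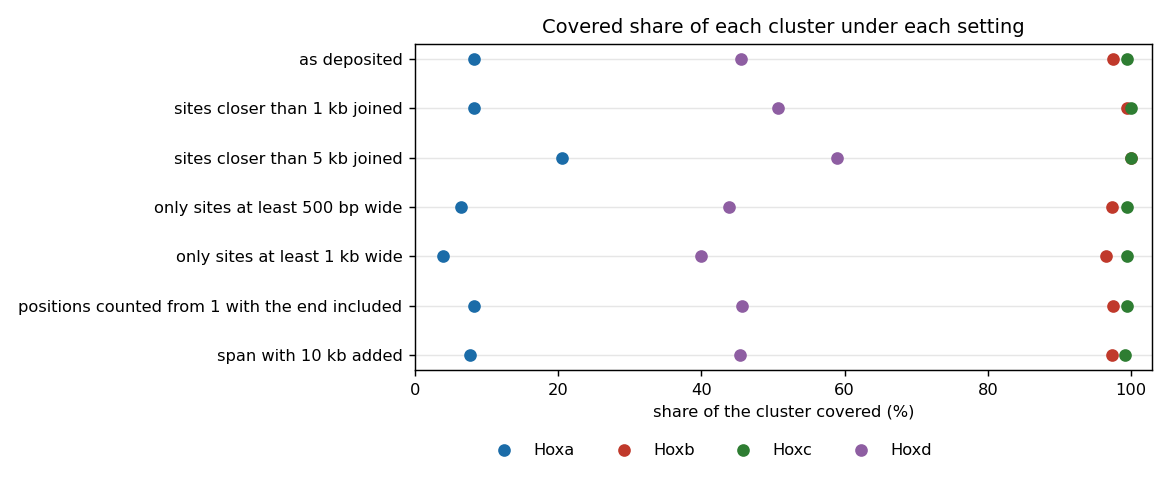
Share of each Hox cluster covered by H3K27me3 sites, in %, with the sites as deposited and under 6 other settings (rows), 1 point per cluster. The order from Hoxa to Hoxd and then Hoxb and Hoxc is the same in every row apart from Hoxb and Hoxc, which are both at 100% when sites closer than 5 kb are joined, and Hoxa lies between 3.89 and 20.6%.

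The order of the clusters did not depend on how sites were joined or filtered, with Hoxa below Hoxd and Hoxd below Hoxb and Hoxc in the 6 other settings tried. When sites under 1 kb were left out, no Hoxa gene had a site in the TSS window and 3 Hoxd genes did, while the counts of 10 in Hoxb and 9 in Hoxc were the same. The sites in the TSS windows of Hoxa were thus all narrower than 1 kb. Joining sites less than 5 kb apart had the opposite effect. The whole TSS window was then covered in 3 Hoxa genes (Hoxa2, Hoxa4 and Hoxa5) instead of 0, and in 3 Hoxd genes instead of 1.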

How the data were processed

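H3K27me3 ChIP-seq libraries of iMEF cells, 12 in all, and 2 input libraries were prepared in the study. According to its methods, trimming by the authors used Trim Galore, alignment BWA against mm10 (GRCm38.p6), filtering samtools, merging of replicates Picard and the calling of broad peaks MACS, with all libraries scaled to the shallowest one. Versions, thresholds and the rule for bringing peaks of different samples together are not given in the sources used here. The deposited file gives chromosome, start and end of each site. It holds no count, signal or other value per library, 0 columns of values were left unassigned, and the depth per sample is unknown.

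Positions were taken as 0-based with an exclusive end, since the narrowest site is then 200 bp wide, and are printed as counted from 1. They were compared with GENCODE M21 on GRCm38.p6, an earlier release than that of the study. Covered shares, gaps and extents were computed with Python 3.11.15, numpy 2.4.6 and pandas 2.3.3, and figures drawn with matplotlib 3.10.9. The scripts were tested on simulated data. Of the 39 Hox genes of the clusters, 1 is not reported here, nor are all genes of the lists below, and spans run between the genes described. Promoters and microRNAs came from RefSeq tables. No test was made, since 1 list without replicates allows none. The Hox genes and the lists of neighbours, RNAs, cofactors and regulators were chosen with earlier results of these data known. Genes were named in full where they were bare or partly covered beside a covered neighbour, at the ends of a cluster, or in those lists. The alternatives joined sites less than 1 kb or 5 kb apart, left out those under 500 bp or 1 kb, or used positions counted from 1, windows of 500 bp or 2 kb, APPRIS principal transcripts only, spans with 10 kb added, or gaps of 5 kb or 20 kb.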

Additional observations from a re-analysis of the deposited data

How the results depend on the processing

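A value was taken as moved when it changed by more than 1.5 times. The counts of Hox genes with a site in the TSS window or the body and with the whole window covered, the medians over all Hox genes and over groups 1 to 8, and the covered shares of Hoxb, Hoxc and Hoxd moved under none of the alternatives run for them. The count with a site in the window ranged from 22 without sites under 1 kb to 28 with windows of 2 kb, and that of wholly covered windows from 20 to 25. The median TSS window share of groups 9 to 13 was 0 without sites under 1 kb and 6.34% with windows of 2 kb. The covered share of Hoxa was 20.6% after joining sites less than 5 kb apart and 3.89% without sites under 1 kb. The extents on the 5′ side of Hoxb and the 3′ sides of Hoxc and Hoxd moved under no alternative, while the other extents did. With gaps of at most 5 kb, and also without sites under 1 kb, they were 0 on both sides of Hoxa and on the 5′ side of Hoxd, and 69.6 kb on the 5′ side of Hoxc. On the 3′ side of Hoxb, they were 39.5 kb and 17.6 kb under these alternatives.

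For single genes, the TSS window share moved in 5 of 38 after joining sites less than 5 kb apart, in 3 without sites under 500 bp, in 5 without those under 1 kb, and in 4 each with windows of 500 bp and 2 kb. The body share moved in 6 genes after joining, in 2 without sites under 500 bp and in 6 without those under 1 kb. That of Hoxa6, for example, went from 15.3% to 95.4% after joining and to 0 without the narrow sites. The body share of Hoxd4 was 29.6% with APPRIS principal transcripts only. No paired analysis was possible because sites were listed once for all libraries. Replicates could not be left out either. Counts of sites say nothing of the depth behind them, which is unknown.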

Other observations

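Genes outside the clusters that control Hox genes or are related to them had wide sites in several cases. The caudal genes Cdx2 and Cdx4, which activate Hox genes in the embryo, and the ParaHox genes Gsx1, Gsx2 and Pdx1 had a TSS window at 100%, and Cdx1 had 79.0%. All 6 listed had a site there, compared with 31.5% of all protein-coding genes. Cdx2 lay in a site of 26548 bp and Gsx2, known from the forebrain, in one of 22734 bp. Pdx1, a regulator of the pancreas, was within a site of 15816 bp.

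Of 9 genes listed for TALE cofactors, homeodomain proteins that bind DNA together with Hox proteins, 3 had a site in the TSS window. This is near the 31.5% of all protein-coding genes. Pknox2 had 36.4% of its TSS window covered, Pbx2 7.88% and Meis1 6.98%. The windows of Pbx3, Pbx4, Meis2, Meis3 and Pknox1 had no site. These lists are short and no test was made on them.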
